A study of Mus musculus with 2 samples.

Results

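The blood and lymphatic endothelial genes examined here are 36 genes that mark the cells lining vessels or act in their growth, their contact with leukocytes and the identity of lymphatic vessels. They were taken from a given list of symbols, and all 36 were found among the 24421 gene symbols of the count table. The table holds 1 library of non-stretched back skin and 1 library of back skin stretched at 33% strain for 5 days. By the labels and methods, both came from C57BL6/J wild type female mice of 8 weeks, and whole-layer skin was used without sorting of cells. In the methods the stretching device was fixed with glue, skin attached to it was left out, the strain was raised a little each day from its initial value, and the mice were in the resting phase of the hair cycle. Each condition has 1 library, so no value has a replicate error and no test across samples was possible. The comparison therefore asks only how these 2 libraries differ.

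Endothelial cells form the inner wall of every vessel and are held together by VE-cadherin and claudin-5. Vascular endothelial growth factors (VEGFs) act on them through receptor tyrosine kinases, of which VEGFR2 drives the growth of blood vessels and VEGFR3 that of lymphatic vessels, while angiopoietins act through TIE2 and set how stable or leaky a vessel is. In inflamed skin, small veins display selectins that slow passing leukocytes, and then ICAM-1 and VCAM-1, which the leukocyte integrins bind before the cells leave the blood.

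The control library had 14152379 counts in all and the stretched library 11648655. Levels are given as CPM (counts per 1000000 counts of the library) or, between genes, as FPKM (CPM per kilobase of exon). A ratio is the CPM in stretched skin over the CPM in control skin, and its 95% interval (exact, Clopper-Pearson) covers counting error only. Reads made by PCR are not independent molecules, so the true error is larger. The median log2 ratio of the 16255 genes with more than 3 counts in at least 1 library was -0.12, and the TMM factors of edgeR would add 0.10 to every log2 ratio. The kit does not mark strand, so reads from a gene and an antisense neighbour cannot be told apart. Exons of other genes covered over 10% of the exon bases of 7 of the 36 genes, namely Rasip1 (42.9%), Nos3 (32.3%), Sox17 (16.8%), Angpt1 (14.2%), Selp (14.1%), Icam1 (11.7%) and Egfl7 (11.2%), and under 2% in the other 29.

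The genes used here as markers of endothelial cells were present in both libraries. Pecam1, Cdh5, Tie1, Emcn and Esam together had 2443 counts in the control library and 2885 in the stretched one, a summed level of 172.6 CPM and 247.7 CPM. Cells were not sorted, and a part of leukocytes or platelets in these counts was not tested. All 36 genes were above 3 counts in both libraries, although Esm1 had 24 counts in all. Over the 36 genes the median level was 3.78 FPKM in the control and 5.52 FPKM in the stretched library. The highest levels in both were those of Aqp1, a water channel of capillaries, at 65.0 and 72.1 FPKM, and the lowest were those of Prox1, the master regulator of lymphatic fate, at 0.185 and 0.307 FPKM.

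**Figure D1:**
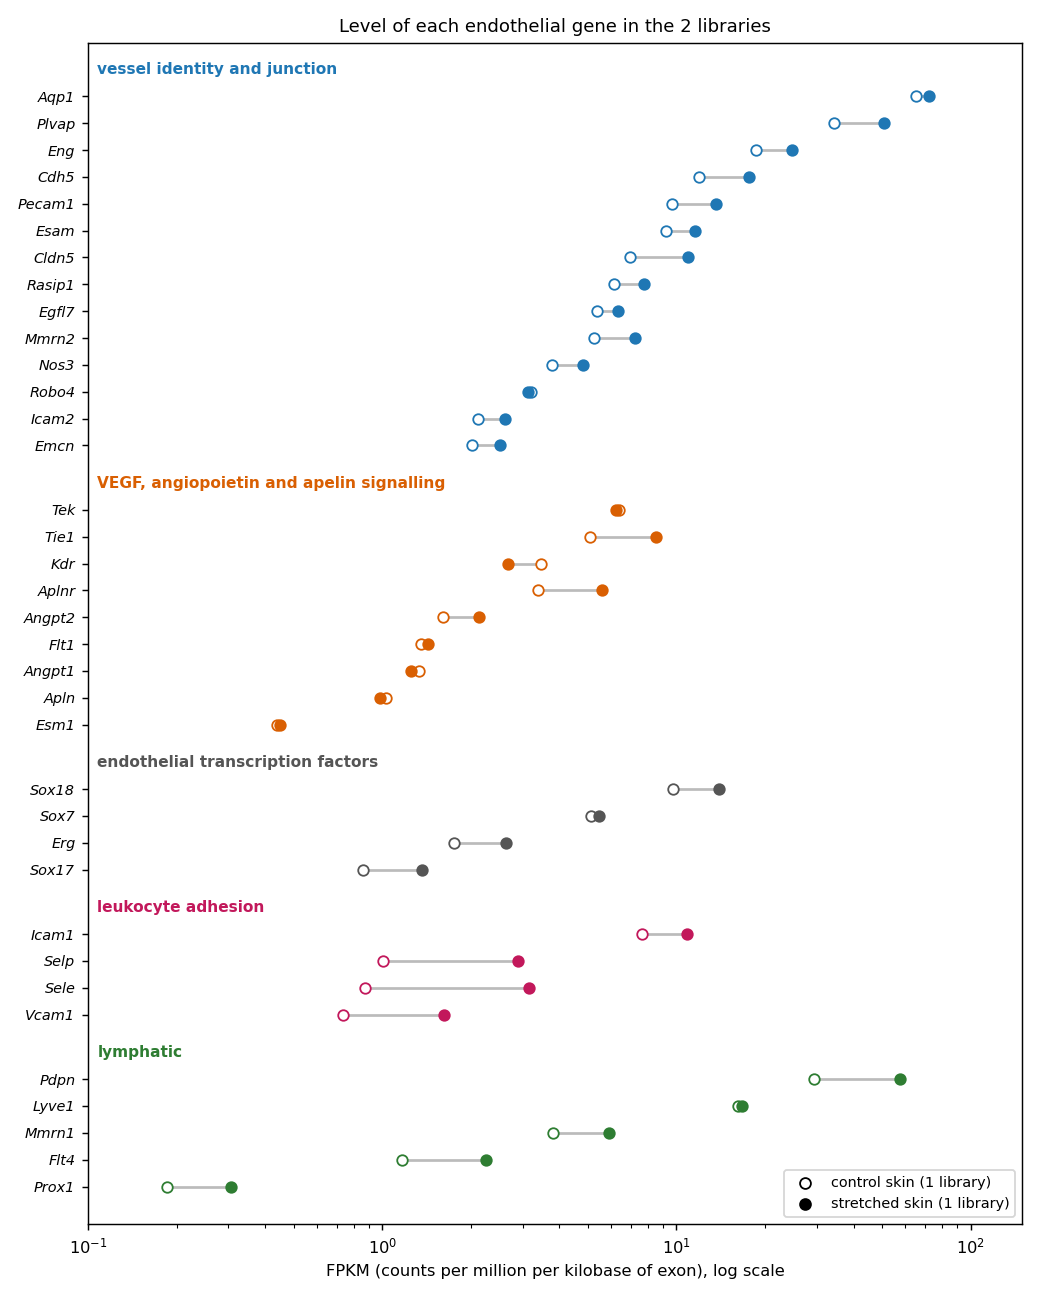
Level of each of the 36 endothelial genes in FPKM (log axis), with open circles for the control library and filled circles for the stretched library, grouped by role. The levels run from below 1 FPKM for Prox1 to above 50 FPKM for Aqp1 in both libraries, and the widest gaps are those of Sele (0.874 and 3.15 FPKM) and Selp (1.01 and 2.90 FPKM).

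Most endothelial genes were moderately higher in stretched skin. Of the 36, 31 had a ratio above 1, and their median log2 ratio was 0.44, against -0.12 over all measured genes. The counting interval lay wholly above 0 on the log2 scale for 22 of the 36 genes, whereas 18.1% of all measured genes and 19.7% of the genes that had 50 or more counts had such an interval. It lay wholly below 0 for 1 gene, Kdr, against 33.5% of all measured genes, and included 0 for 13. A ratio of at least 1.5 was reached by 11 genes (12.3% of all measured genes) and a ratio of at most 1/1.5 by 0 genes (14.1%). A ratio of 2 or more was found for 3 genes, Sele, Selp and Vcam1, against 6.32% of all measured genes, and a ratio of 0.5 or less for 0 genes (5.47%). Without the 4 leukocyte adhesion genes, the other 32 had a median log2 ratio of 0.38 and 18 intervals above 0. In bulk skin, more cells of a type and more RNA per cell cannot be told apart.

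By the filter and fold rule of the study's methods, 0 of the 36 genes were called in either direction. That rule asks for a product of both FPKM values above 10 (EV) and at least a 2-fold difference, and it calls 2.61% of the genes it admits higher and 2.43% lower. Here 1 was added to each FPKM before the product and the fold were taken. The filter admitted 24 of the 36 genes. Sele, Selp and Vcam1 were not among them, since their FPKM values were low. Pdpn was admitted and was just short of the fold limit, and with the TMM factors it was called higher.

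**Figure D2:**
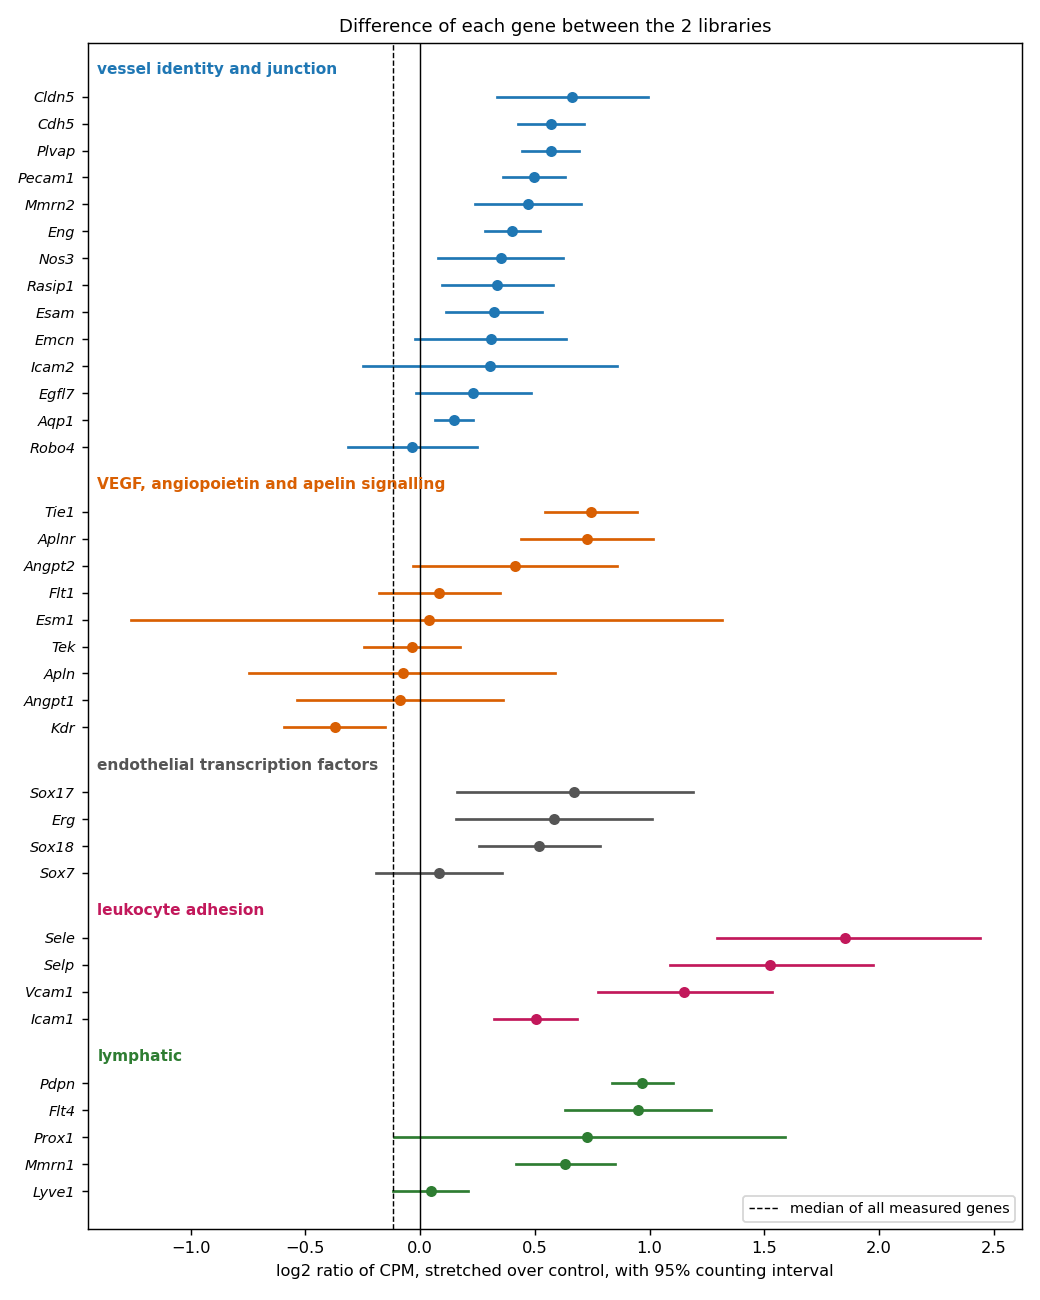
Log2 ratio of CPM, stretched over control skin, for each of the 36 genes (points) with the 95% counting interval (bars). The solid line is at 0 and the dashed line at the median of all measured genes (-0.12). Sele, Selp and Vcam1 lie farthest to the right, and Kdr is the gene whose interval lies wholly to the left of 0.

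The genes of vessel identity and cell junctions were mostly higher, by unequal amounts. Their ratios ran from 0.977 for Robo4 to 1.58 for Cldn5. Of these 14 genes, 13 had a ratio above 1, 10 had an interval above 0 (18.1% of all measured genes), and the median log2 ratio was 0.34. Pecam1, which encodes the junctional adhesion molecule CD31, occupies bases 106654217 to 106750628 of chromosome 11 (mm10). It had 851 counts in the control library and 988 in the stretched one, 1.41-fold higher (interval 1.29 to 1.55). Cdh5, the gene of VE-cadherin, had 709 and 866 counts and was 1.48-fold higher (interval 1.34 to 1.64). Cldn5, the tight junction gene claudin-5, had 139 and 181 counts and the largest ratio of the group, 1.58 (interval 1.26 to 1.99). The 3 genes have overlapping intervals, so their order is not fixed at this depth.

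Plvap, which encodes the diaphragm of fenestrated and venous endothelium, had 966 and 1179 counts and was 1.48-fold higher (interval 1.36 to 1.62). Eng, a co-receptor for TGF-beta family ligands, had 1070 and 1164 counts and was 1.32-fold higher (interval 1.22 to 1.44). Mmrn2, an extracellular glycoprotein of the vessel wall, had 294 and 335 counts (ratio 1.38, interval 1.18 to 1.62). Lower ratios with an interval above 1 were found for the endothelial nitric oxide synthase gene Nos3 (1.28), for Rasip1, which acts in lumen formation (1.26), and for the junction gene Esam (1.25).

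Some genes of the group differed little. Aqp1 had 2418 counts in the control library and 2206 in the stretched one, a ratio of 1.11 (interval 1.05 to 1.17). The interval included 1 for Emcn, a venous and capillary sialomucin (155 and 158 counts), for Egfl7, a secreted factor that guides vessel tubes (272 and 263), and for the adhesion gene Icam2 (57 and 58). Robo4, a receptor that keeps vessels tight, had 240 and 193 counts and a ratio of 0.977 (interval 0.804 to 1.19). Its log2 ratio of -0.03 turned positive with the TMM factors, as did those of Tek, Apln and Angpt1.

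The genes of VEGF, angiopoietin and apelin signalling had a median log2 ratio of 0.04. Of the 9 intervals, 2 lay above 0 (22.2%, against 18.1% of all measured genes), 1 below (33.5% of all measured genes) and 6 included 0, so the share above 0 was near that of all genes. Kdr, which encodes VEGFR2, occupies bases 75932827 to 75978458 of chromosome 5. It had 442 counts in the control library and 281 in the stretched one, or 3.46 and 2.67 FPKM. The ratio was 0.772 (interval 0.663 to 0.899), the lowest of all 36 genes. Flt1, the gene of VEGFR1, which binds VEGF with high affinity and limits its supply to VEGFR2, had 258 and 225 counts and a ratio of 1.06 (interval 0.882 to 1.27).

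The orphan receptor gene Tie1 and its partner Tek differed from each other. Tie1, on chromosome 4 from 118471191 to 118490061, had 354 counts in the control library and 488 in the stretched one, 1.67-fold higher (interval 1.46 to 1.93). Tek, which encodes the angiopoietin receptor TIE2, had 424 and 341 counts and a ratio of 0.977 (interval 0.845 to 1.13). Within a library the count of Tie1 was 0.835 times that of Tek in control skin and 1.43 times in stretched skin, and the log2 difference between these quotients was 0.78 (interval 0.49 to 1.07). This quotient does not depend on how the libraries are scaled. Of the ligands, Angpt1, which activates TIE2 and steadies vessels, had 98 and 76 counts, and Angpt2, which can oppose it, had 84 and 92. The log2 difference between the quotients of Angpt2 over Angpt1 was 0.50, with an interval of -0.14 to 1.14 that included 0.

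The apelin receptor gene Aplnr, a marker of veins and growing vessels, had 177 counts in the control library and 241 in the stretched one, 1.65-fold higher (interval 1.36 to 2.02). Its ligand gene Apln had 46 and 36 counts (ratio 0.951, interval 0.597 to 1.5), and Esm1, a gene of sprouting tip cells, had 13 and 11 (ratio 1.03, interval 0.417 to 2.49). No difference was detectable for Apln and Esm1 at this depth.

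The ligands of the VEGF receptors went both ways. Vegfa, the main ligand of VEGFR2, had 1261 counts in the control library and 671 in the stretched one (20.8 and 13.4 FPKM), a ratio of 0.646 (interval 0.588 to 0.711). Vegfb, a ligand of VEGFR1, had 385 and 201 counts, a ratio of 0.634 (interval 0.532 to 0.754). Pgf, another ligand of VEGFR1, had 11 and 38 counts, a ratio of 4.20 with the wide interval 2.10 to 9.10. The ligands of VEGFR3 had ratios of 1.39 for Vegfc (interval 0.977 to 1.97) and 1.25 for Vegfd, listed under its older symbol Figf (interval 0.975 to 1.61). Of the 13 measured genes in a list of other VEGF, angiopoietin and apelin pathway genes, 4 had an interval above 0 (18.1% of all measured genes) and 7 below (33.5%), with a median log2 ratio of -0.24. With at least 50 counts, the highest of them was Ccbe1, a lymphatic growth gene whose product helps to process VEGF-C (1.01), and the lowest was Adamts3, which encodes the protease of the same step (-1.09), both on the log2 scale.

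Notch signalling, which endothelial cells use to set arterial fate and to restrain sprouting, was measured with 8 genes. All 8 had a log2 ratio below 0, with 6 intervals below 0 (33.5% of all measured genes) and a median of -0.59, against -0.12 over all measured genes. The lowest was Jag1 at -1.07, which was called lower by the filter and fold rule, and the highest was Notch4, the member most restricted to endothelium, at -0.06 (interval -0.42 to 0.29). Jag1, Notch1, Jag2 and Hes1 are also used by epidermis and hair follicles. The remaining genes of the list were lower too. Dll4 had 97 and 54 counts (ratio 0.676, interval 0.476 to 0.953) and Hey2 had 73 and 34 (0.566, interval 0.365 to 0.861). Hey1 had 101 and 68 counts (0.818), with an interval of 0.592 to 1.12 that included 1. The keratinocyte markers had a summed ratio of 1.02, with 4 intervals above 0 and 5 below among 10 genes, and their part in these values was not tested. Among 8 venous and arterial genes, 4 intervals lay above 0 (18.1% of all measured genes) and 2 below (33.5%). The highest log2 ratio was that of Gja5, an arterial connexin (0.89, interval 0.34 to 1.44), and the lowest that of the netrin receptor gene Unc5b (-1.51, interval -1.65 to -1.38), which was also called lower by the filter and fold rule.

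The 4 transcription factor genes had a median log2 ratio of 0.55. Sox17, which acts in arteries, had 58 counts in the control library and 76 in the stretched one (ratio 1.59, interval 1.12 to 2.28). Sox18, a regulator of blood and lymphatic vessel development, had 223 and 263 (1.43, interval 1.19 to 1.72), and the ETS factor gene Erg had 86 and 106 (1.5, interval 1.12 to 2.01). Sox7, the third gene of the same SOX subfamily, had 240 and 209 counts and a ratio of 1.06 (interval 0.875 to 1.28). The intervals of Sox7 and of the other 3 overlapped.

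Of the 4 leukocyte adhesion genes, Sele, Selp and Vcam1 had the largest ratios of the 36 genes and Icam1 a moderate one. All 4 had an interval above 0 (18.1% of all measured genes). Their median log2 ratio was 1.34, against -0.12 over all measured genes, and their summed level was 46.8 CPM and 83.7 CPM. Sele, which encodes E-selectin, a molecule that endothelium makes when activated, occupies bases 164048234 to 164057677 of chromosome 1. It had 36 counts in the control library and 107 in the stretched one, 3.61-fold higher (interval 2.45 to 5.43). Selp, the P-selectin gene in the same cluster on chromosome 1 from 164115264 to 164150026, had 63 and 149 counts and was 2.87-fold higher (interval 2.13 to 3.92). Vcam1, on chromosome 3 from 116109949 to 116129688, encodes the ligand of the integrin alpha-4 beta-1 and had 92 and 168 counts, 2.22-fold higher (interval 1.71 to 2.89). Icam1, on chromosome 9 from 21015985 to 21028817, encodes the ligand of the leukocyte beta-2 integrins and had 472 and 551 counts, 1.42-fold higher (interval 1.25 to 1.61). The intervals of Sele, Selp and Vcam1 did not overlap that of Icam1, while neighbours in the order Sele, Selp, Vcam1 overlapped each other. Those of Selp and Vcam1 also overlapped the intervals of Pdpn (1.78 to 2.14) and Flt4 (1.55 to 2.41), so these ranks are not fixed at this depth.

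Per kilobase of exon Icam1 remained the most abundant of the 4 in both libraries. It stood at 7.65 and 10.8 FPKM, against 1.01 and 2.90 for Selp, 0.874 and 3.15 for Sele and 0.733 and 1.63 for Vcam1. The levels of Sele and Selp were close to each other in both libraries, and their order was not tested. The counts of Sele relative to Icam1 differed between the libraries by 1.35 on the log2 scale (interval 0.76 to 1.96), those of Selp by 1.02 (0.54 to 1.5) and those of Vcam1 by 0.65 (0.23 to 1.07).

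Promoters of adhesion genes are classical targets of NF-kB, the transcription factor that inflammatory cytokines activate. The 250 bases before the RefSeq start (GRCm38.p6) are shown for the 3 adhesion genes with an entry, because they were higher together, and for Kdr, the gene that was lower. The sequences are written 5′ to 3′ on the strand of the gene, and capitals mark matches on either strand to GGNNNTTCC, an NF-kB-type motif.
Sele, chr1:164047984-164048233, plus strand: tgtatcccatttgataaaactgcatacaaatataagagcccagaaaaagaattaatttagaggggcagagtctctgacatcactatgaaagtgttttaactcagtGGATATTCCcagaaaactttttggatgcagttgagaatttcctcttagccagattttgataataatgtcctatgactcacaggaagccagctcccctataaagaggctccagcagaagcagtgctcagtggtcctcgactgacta
Selp, chr1:164115014-164115263, plus strand: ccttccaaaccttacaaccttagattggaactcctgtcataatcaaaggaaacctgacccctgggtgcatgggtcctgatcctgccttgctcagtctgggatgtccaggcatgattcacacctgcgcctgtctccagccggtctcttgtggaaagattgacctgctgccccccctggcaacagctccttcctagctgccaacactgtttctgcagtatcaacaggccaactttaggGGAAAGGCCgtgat
Icam1, chr9:21015690-21015939, plus strand: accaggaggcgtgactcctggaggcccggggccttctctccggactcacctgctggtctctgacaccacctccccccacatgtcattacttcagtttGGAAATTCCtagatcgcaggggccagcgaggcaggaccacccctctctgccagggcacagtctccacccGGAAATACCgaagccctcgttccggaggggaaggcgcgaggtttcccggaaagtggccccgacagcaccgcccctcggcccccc
Kdr, chr5:75978456-75978705, minus strand: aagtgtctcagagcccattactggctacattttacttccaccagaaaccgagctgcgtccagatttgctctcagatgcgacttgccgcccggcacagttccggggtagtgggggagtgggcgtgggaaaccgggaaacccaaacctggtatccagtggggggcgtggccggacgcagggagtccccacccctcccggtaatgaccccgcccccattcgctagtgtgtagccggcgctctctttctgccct

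The motif occurred once in the Sele window, from base 145 to base 137 before the start, and once in the Selp window, from base 14 to base 6. The Icam1 window held it at bases 153 to 145, where the letters match on both strands, and at bases 84 to 76. The Kdr window held no match to these letters. The motif was found in 15.7% of the 32851 promoters of the table, and in 7 of the 26 promoters given for 21 of the endothelial genes. The others were 2 promoters of Egfl7 and 1 each of Eng and Mmrn1. An ETS-type motif, AGGAAGT, was present in promoters of Egfl7, Eng and Flt1 (4 of 26, against 7.69% of all), and overlapped the NF-kB-type match in Eng. A SOX-type motif, AACAAT, was present in those of Emcn, Erg, Mmrn1 and Tek (4 of 26, against 9.42%). These are matches of letters, not sites of binding.

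The leukocyte counterparts of these molecules were higher as well. All 10 genes in a list of leukocyte ligands of endothelial adhesion molecules had an interval above 0 (18.1% of all measured genes), with a median log2 ratio of 1.11. The filter and fold rule admitted 6 of them and called 4 higher (Itgam, Itgb2, Itgb7 and Selplg), against 2.61% of all admitted genes. Exons of other genes cover 68.7% of the exon bases of Itgam, so its value is uncertain. The highest was Itgax, an integrin gene of dendritic cells and macrophages, with 47 and 152 counts (3.93-fold, interval 2.82 to 5.57). The lowest was Itgb1, an integrin chain that most cells express (1.28-fold, interval 1.23 to 1.32). All 8 pan-leukocyte markers were higher, with a summed level of 219.8 CPM in the control and 564.9 CPM in the stretched library. Of the 12 macrophage markers, 11 had an interval above 0 (18.1% of all measured genes), with 669.7 and 1525 CPM.

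Icam1 and Vcam1 can also be made by leukocytes, fibroblasts and keratinocytes, and Selp by platelets. The part of leukocytes, fibroblasts, keratinocytes and platelets in the ratios was not tested. The fibroblast markers all had an interval above 0 (18.1% of all measured genes). Their summed level was 41729 and 78273 CPM, and without the collagen chains 2784 and 3346 CPM. Of the platelet markers, Gp9 had 1 and 0 counts, Gp6 had 0 and 0, and Ppbp had 2 and 8, while 2 of the 6 measured genes, Pf4 and Itga2b, had an interval above 0. The summed level of the list was 71.3 CPM in the control and 117.3 CPM in the stretched library. Within it Pf4 had 24.9 and 51.9 CPM and Itga2b 8.97 and 23.1 CPM, while the intervals of Gp1ba, Gp1bb, Itgb3 and Ppbp included 0. Exons of other genes cover 92.9% of the exon bases of Gp1bb, so its value is uncertain.

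Of the 5 lymphatic genes, 3 had an interval above 0 (18.1% of all measured genes) and those of Prox1 and Lyve1 included 0. Their median log2 ratio was 0.73. Flt4, which encodes the VEGF-C receptor VEGFR3, occupies bases 49609263 to 49652739 of chromosome 11. It had 136 counts in the control library and 216 in the stretched one, 1.93-fold higher (interval 1.55 to 2.41). Mmrn1, a secreted glycoprotein of lymphatic endothelium, had 315 and 402 counts (1.55-fold, interval 1.33 to 1.80). Prox1 had 22 and 30, and its ratio of 1.66 had an interval of 0.924 to 3.01 that included 1. Lyve1, a hyaluronan receptor of lymphatic vessels and of some tissue macrophages, had 667 and 567 counts and a ratio of 1.03 (interval 0.922 to 1.16).

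Pdpn, the podoplanin gene, on chromosome 4 from 143267431 to 143299564, had the largest ratio of the lymphatic genes. It had 755 counts in the control library and 1215 in the stretched one, or 29.4 and 57.4 FPKM, 1.96-fold higher (interval 1.78 to 2.14). Its level was far above those of Flt4 (1.17 and 2.25 FPKM) and Prox1. Podoplanin is also made by activated fibroblasts, keratinocytes and macrophages, whose markers are given above, and their part was not tested. Relative to Lyve1, the count of Pdpn differed by 0.92 on the log2 scale (interval 0.71 to 1.13). Flt4 differed from Kdr in the opposite direction within the VEGF receptors, with a count of 0.308 times that of Kdr in control skin and 0.769 times in stretched skin (log2 difference 1.32, interval 0.93 to 1.71).

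A second list of lymphatic genes was also measured. Of its 8 measured genes, 3 had an interval above 0 (18.1% of all measured genes) and 3 below (33.5%), with a median log2 ratio of 0.08. The highest was Fgl2 (0.81), which macrophages and T cells also make, and the lowest was Tbx1 (-0.98), which hair follicles also express. The chemokine gene Ccl21a was listed at 0 in both libraries. It shares 60.9% of its stretches of 76 bases with other genes, so this value is uncertain.

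The genes were next set against the summed counts of Pecam1, Cdh5, Tie1, Emcn and Esam, a quotient within each library that does not depend on scaling. For a gene of those 5, the other 4 were summed. The part of cells other than endothelium in these sums was not tested. On this scale 6 genes had an interval above 0 (5.35% of all measured genes), 10 below (70.2%) and 20 that included 0. The median of all measured genes was -0.64 here, and 35 of the 36 genes were above it, 9 of the 10 lower ones included. The 6 were Sele at 1.33 (interval 0.77 to 1.92), Selp at 1.0 (0.56 to 1.46), Vcam1 at 0.63 (0.24 to 1.02), Pdpn at 0.45, Flt4 at 0.43 and Tie1 at 0.26, on the log2 scale. The lowest was Kdr at -0.89 (interval -1.13 to -0.66), whose counts were 18.1% of the sum in the control library and 9.74% in the stretched one. Angpt1 (-0.61), Tek (-0.55), Robo4 (-0.55), Lyve1 (-0.47), Sox7 (-0.44), Flt1 (-0.44), Aqp1 (-0.37), Egfl7 (-0.29) and Esam (-0.23) were also lower. Icam1 was at -0.02, with an interval of -0.21 to 0.18, so its ratio between libraries was close to that of the summed markers.

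**Figure D3:**
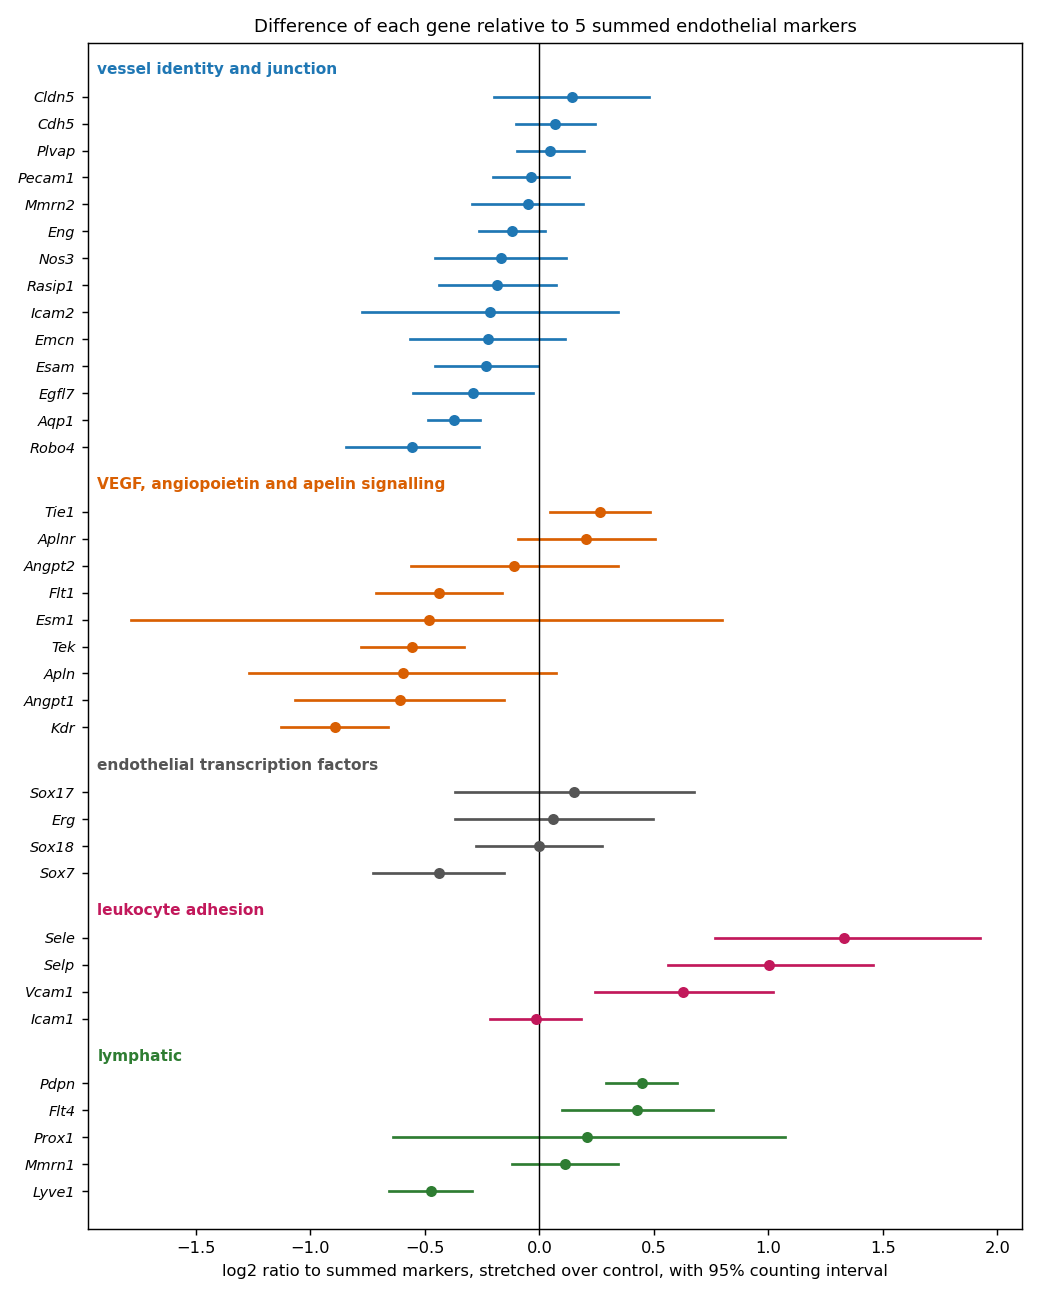
Log2 ratio of each gene to the summed counts of 5 endothelial markers, stretched over control skin, with the 95% counting interval (bars). Genes at 0 differ between the libraries as much as the summed markers do. Sele, Selp and Vcam1 lie above 0 with their whole interval, and Kdr, Tek and Lyve1 below.

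Other endothelial genes, the cells around vessels and the remaining tissue were measured in the same way. Of 20 other endothelial genes, 11 had an interval above 0 (18.1% of all measured genes) and 1 below (33.5%), with a median log2 ratio of 0.27. The highest with at least 50 counts was Ecscr, a receptor of endothelial migration (101 and 161 counts, 1.94-fold, interval 1.5 to 2.51). The lowest was Gpihbp1, which holds lipoprotein lipase on capillaries of fat and muscle (133 and 77 counts, ratio 0.703, interval 0.524 to 0.938). The 12 pericyte and smooth muscle markers had 4 intervals above 0 (18.1% of all measured genes), 4 below (33.5%) and a summed ratio of 1.06. The 9 adipocyte markers all had an interval below 0, with a summed level of 2709 CPM in the control and 1740 CPM in the stretched library. The 12 skeletal muscle markers had a summed ratio of 0.777 with 3 intervals above 0 and 9 below. That sum turned on Myh4, a fast myosin chain (6432 and 270.9 CPM), and without it, a choice made after its values were seen, the summed ratio was 0.968. Of the 8 erythroid markers found in the table, 2 were measured, with a summed ratio of 0.583 for the list. Alas2, the first enzyme of heme synthesis in red cells, had 83 and 67 counts, and Slc4a1, the band 3 anion exchanger, had 85 and 12 (ratio 0.172, interval 0.0853 to 0.315). The 4 globin genes were listed at 0, and since they share 51.4% to 84.4% of their stretches of 76 bases with other genes, these values are uncertain.

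**Figure D4:**
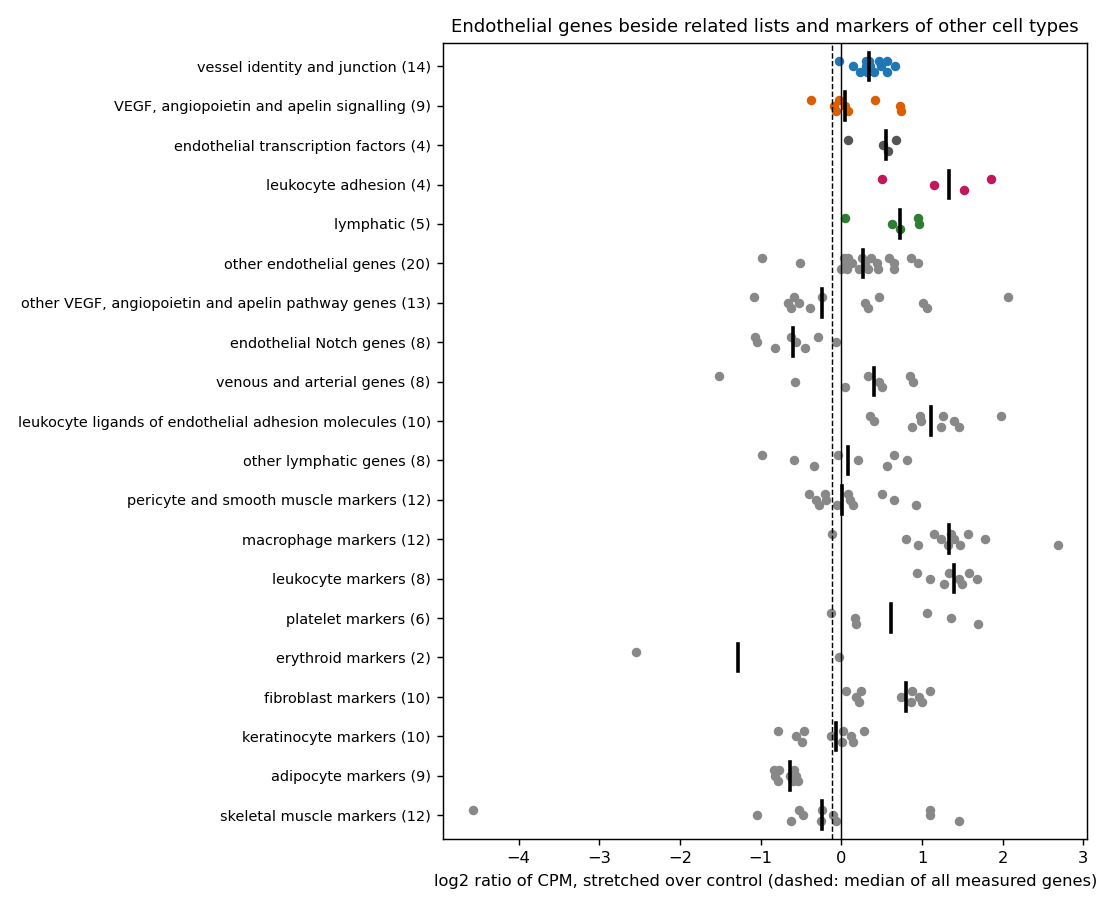
Log2 ratio of CPM, stretched over control skin, of each measured gene (points) in the 5 groups of endothelial genes (coloured) and in related lists and markers of other cell types (grey), with the number of measured genes in brackets and the median of each list as a bar. The dashed line is the median of all measured genes (-0.12). The leukocyte adhesion group has the highest median of the 5 endothelial groups (1.34), and the medians of the leukocyte (1.40) and macrophage (1.34) markers are close to it, although the macrophage markers spread from -0.12 to 2.68.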

How the data were processed

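RNA-seq libraries of whole-layer skin were compared, 1 per condition. The authors deposited raw read counts per gene symbol, not normalized. Per the labels and the methods, read quality was handled with the FASTX-Toolkit, TopHat2 was the aligner and mm10 the build, and the counter and its treatment of shared reads are not given in the sources used here. Cufflinks levels from the methods are not analysed here. From the counts, CPM and FPKM were computed with the library totals and the exon union of each gene in GENCODE M21 (23376 symbols matched by name, 652 by synonym, 393 without a length). Counts of 3 or fewer in both libraries (0.212 and 0.258 CPM) were not measured. Single-gene intervals are exact (Clopper-Pearson), and those of quotients of 2 counts are exact conditional intervals of the odds ratio. With 1 library per condition no p-value was computed. All 36 genes are named. Of each related list, the highest and lowest gene with at least 50 counts are named, besides Vegfa, Vegfc, Vegfd and Pgf. Vegfb, platelet markers, Notch genes besides the highest and lowest, and genes named for overlap or for markers at or near 0 were picked with their values in view. The genes and lists were chosen with earlier results of these data known. Alternatives covered scaling (TMM of edgeR 4.0.16, median of ratios of DESeq2 1.42.0, upper quartile, totals without the top 50 genes), filters, pseudocounts, gene length and the width of the interval. The calls and intervals were tested on simulated data. Python 3.11.15, scipy 1.17.1 and R 4.3.3 were used.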

Additional observations from a re-analysis of the deposited data

How the results depend on the processing

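No paired analysis was possible because each condition has 1 library. Leaving out a library was not possible. The scalings add one shift to every log2 ratio, namely 0.10 (TMM), 0.11 (median of ratios), 0.10 (upper quartile) or 0.06 (library totals less the top 50 genes). With each of the 4 scalings, 1 of the 36 genes was called higher by the filter and fold rule in place of 0, and it was Pdpn (25 of the 36 admitted, with 2.81% to 3.08% of all admitted genes called higher). Without the EV filter it was 1 of 36 (Sele, 1.5% of all genes), with the longest transcript as length 1 of 29 (Selp, 2.7%), with CPM in place of FPKM 3 of 34 (Vcam1, Sele and Selp, 3.36%), and with a fold change of at least 1.5 it was 4 of 24 (Cldn5, Tie1, Aplnr and Pdpn, 6.23%). The cause was not tested for the change of length. The number called lower was 0 in all 11 alternatives. The number of intervals above 0 ranged from 21 to 27, and that below 0 was 1 in all 7 alternatives. The medians of the 36 genes and of the 5 groups kept their sign. Of 144 values of single genes under the scalings, 3 left the interval, all of 1 gene, and 4 genes near 0 changed sign. Among related and marker lists, the median of the keratinocyte markers turned positive with TMM (0.0416), median of ratios (0.0493), upper quartile (0.0404), totals less the top 50 genes (0.0027) and the median of all genes subtracted (0.0583), and that of the erythroid markers with no filter (0.28, where genes at 0 give the ratio of the library totals). Of the 36 genes, Esm1, Prox1 and Apln had the fewest counts, and their intervals included a ratio of 1.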
